A study of Mus musculus with 16 samples.

Results

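The genes described here are 8 genes of cholesterol synthesis and its control: Hmgcs1, Idi1, Fdps, Fdft1, Sqle, Lss and Cyp51, which encode enzymes of the pathway, and Insig1, which encodes a brake on it. They were found by gene symbol, were measured by 10 probes, and are 8 of the 20551 genes with a symbol on the array. Hmgcs1 and Sqle had 2 probes each, which were averaged, and the other genes had 1 probe each. Liver RNA was measured on 2-colour arrays in 8 Lpl+/- mice, which carry 1 knockout allele of the lipoprotein lipase gene Lpl, and in 8 wild type littermates. All mice were males fed chow, and each liver was set against the same pool of RNA from the livers of 9 wild type mice. The ages of the mice, their strain and whether the wild type mice measured here were also in the pool are unknown here. The labels name no promoter or tissue that would limit the knockout allele to the liver.

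Cholesterol is made from acetyl-CoA through mevalonate, isoprenoid diphosphates, squalene and lanosterol. The transcription factor SREBP2, encoded by Srebf2, drives the genes for these enzymes. When membranes of the endoplasmic reticulum are low in cholesterol, the escort protein SCAP carries SREBP2 to the Golgi, where proteases release its active part. When cholesterol is plentiful, INSIG proteins hold SCAP back. Insig1 is itself an SREBP target, which closes a feedback loop, and in liver it also responds to SREBP1c, the factor that drives fatty acid synthesis. The liver is a main site of cholesterol synthesis and the site where bile acids are made from it.

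Sterol regulatory elements and CCAAT boxes, which bind the cofactor NF-Y, are the known control elements of such genes. RefSeq promoter sequences on GRCm38.p6, from 250 bases before to 50 bases after the start site, were found for 5 of the 8 genes (Hmgcs1, Idi1, Insig1, Cyp51 and Lss), with 1 promoter each. The promoters of Hmgcs1, chr13:119690101-119690400 on the plus strand, of Insig1, chr5:28071162-28071461 on the plus strand, and of Cyp51, chr5:4104648-4104947 on the minus strand, are shown because they differ in these elements. They are written 5′ to 3′ along the gene, and capitals mark CACNCCAC (N is any base) and CCAAT on either strand, where ATTGG is CCAAT on the other strand.
Hmgcs1: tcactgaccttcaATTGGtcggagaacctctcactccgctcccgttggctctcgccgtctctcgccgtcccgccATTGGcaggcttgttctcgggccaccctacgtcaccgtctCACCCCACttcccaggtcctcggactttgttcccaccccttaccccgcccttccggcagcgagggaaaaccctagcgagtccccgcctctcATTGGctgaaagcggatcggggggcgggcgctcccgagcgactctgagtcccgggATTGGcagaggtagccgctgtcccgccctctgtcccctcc
Insig1: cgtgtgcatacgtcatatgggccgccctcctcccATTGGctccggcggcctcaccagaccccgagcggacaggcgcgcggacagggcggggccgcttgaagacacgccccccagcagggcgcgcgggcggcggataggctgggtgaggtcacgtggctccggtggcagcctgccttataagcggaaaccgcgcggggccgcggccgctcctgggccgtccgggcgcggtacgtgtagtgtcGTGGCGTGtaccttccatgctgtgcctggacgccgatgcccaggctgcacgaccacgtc
Cyp51: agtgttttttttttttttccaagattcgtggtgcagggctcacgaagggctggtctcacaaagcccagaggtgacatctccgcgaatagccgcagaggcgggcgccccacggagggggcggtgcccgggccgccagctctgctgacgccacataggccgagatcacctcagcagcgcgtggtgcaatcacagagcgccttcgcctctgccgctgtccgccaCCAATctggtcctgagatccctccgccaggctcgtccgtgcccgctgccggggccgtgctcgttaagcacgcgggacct
The element TCACNCCAC, which contains CACNCCAC, was found on either strand in 1.24% of 32851 promoters in the table and in 1 of the 5 promoters here, that of Hmgcs1, where it began at position -137 from the start site. The shorter CACNCCAC was in 6.24% of all promoters and in 2 of these 5, those of Hmgcs1 and of Insig1, where it lay on the other strand at -9. CCAAT was in 37.4% of all promoters and in 5 of these 5, with 4 copies in Hmgcs1 and 1 copy each in Insig1 and Cyp51. The GC box GGGCGG was in 35.7% of all promoters and in 5 of 5, and the E-box CACGTG was in 7.15% and in Insig1 alone of the 5, at -101. These are matches of letters and no measurement of binding.

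The deposited values are log ratios, taken as log10, of a mouse over the pool, so that 0 means the level of the pool. The direction is a likely one. Sample titles, dye labels and Lpl itself, which was low in Lpl+/- livers, were used to set it, so the sign of Lpl is no separate check. Values can be compared between mice for 1 gene, and they do not give the level of a gene against another gene. For the same reason the values cannot show whether markers of hepatocytes are present. Of 120 pairs of arrays, wild type 5 and wild type 8 alone correlated below -0.3 over all probes (r = -0.352), so for this pair of arrays the direction stays unsettled, and results are also given with their sign turned. Lpl was lower in Lpl+/- livers, with a fold of 0.419 (95% interval 0.329 to 0.532, limma adjusted p = 0.0158), and its groups did not overlap. In whole liver, fewer cells of a type and less RNA per cell cannot be told apart.

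None of the 8 genes was called different between Lpl+/- and wild type livers. The test was limma across all 36824 features, with a threshold of 0.05 on the p adjusted over all of them, which called 6 features (0.0163%) and 0 of the 8. Of the 6 features, 3 were higher in Lpl+/- livers (0.00815%) and 3 lower (0.00815%). At an unadjusted p under 0.05 it called 2063 features (5.6%) and again 0 of the 8. The ranges of the genotypes overlapped for all 8 genes, while 14 features (0.0380%) had ranges that did not overlap. Of the 8 genes, 3 had a higher and 5 a lower mean in Lpl+/- livers, beside 51.0% higher over all features. The median difference over the 8 was -0.0145, beside 0.000531 over all features. The plot of the 8 genes by genotype shows the spread behind these values.

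**Figure D1:**
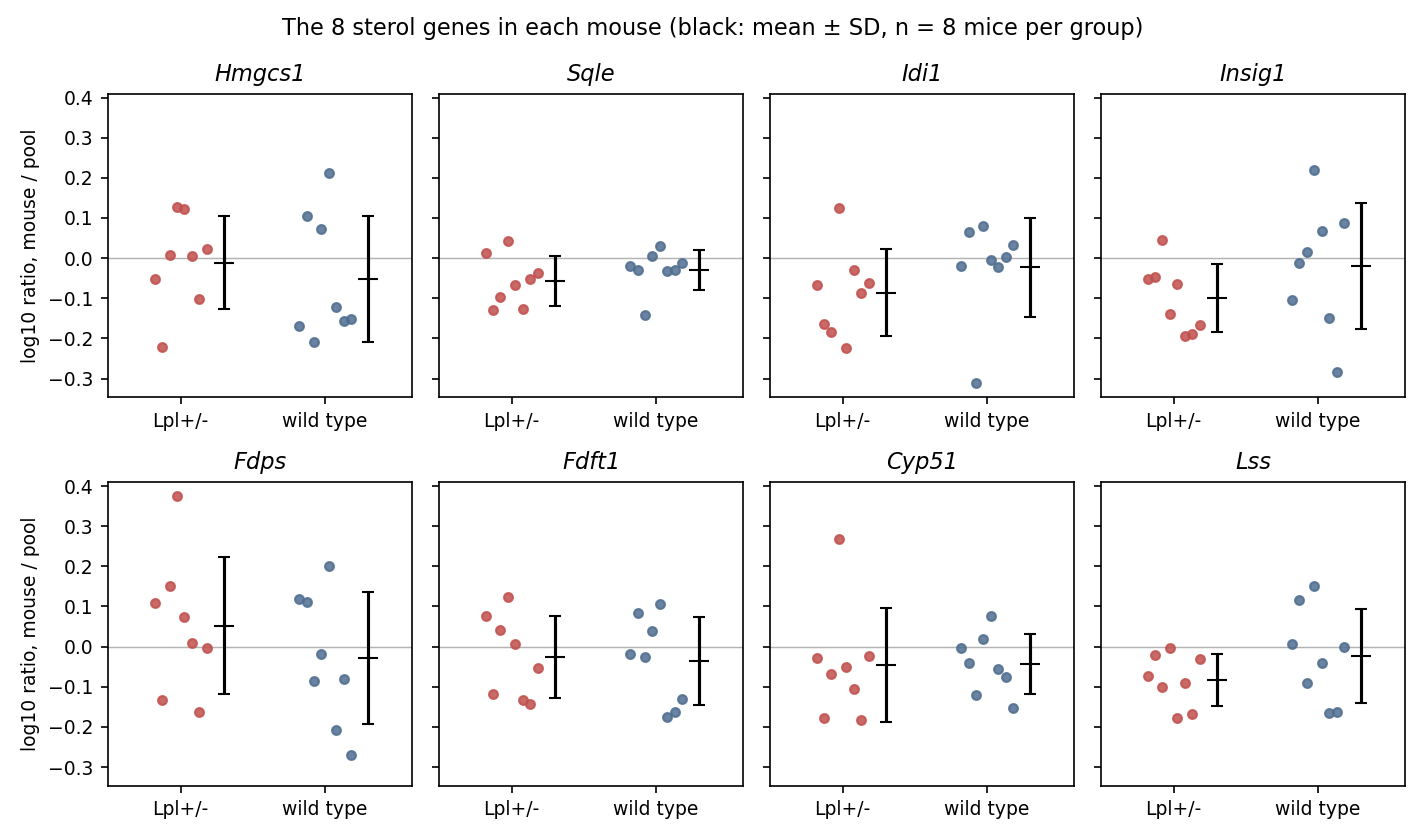
Log10 ratio of each mouse over the pool (vertical axis) for the 8 genes, with 1 point per mouse, Lpl+/- on the left and wild type on the right of each panel. Black marks show the mean ± SD of 8 mice. In every panel the genotypes overlap, and single mice lie far from the rest, such as the Lpl+/- mouse at 0.269 for Cyp51 and the wild type mouse at -0.312 for Idi1.

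The early steps of the pathway lead to the isoprenoid diphosphates. Hmgcs1, the cytosolic HMG-CoA synthase, ran from -0.222 through a median of 0.00702 to 0.128 in Lpl+/- mice, and from -0.208 through a median of -0.137 to 0.213 in wild type mice. Its means were -0.0112 ± 0.115 in Lpl+/- and -0.0522 ± 0.158 in wild type livers (SD, n = 8 each), a fold of 1.10 with a 95% interval of 0.803 to 1.5 (limma adjusted p = 0.909, exact permutation p = 0.555). Both genotypes held mice at the low and the high end, with 3 wild type mice above 0 and 5 at or below -0.123. Idi1, the isomerase that balances the isoprenoid building blocks, ran from -0.223 through -0.0760 to 0.124 in Lpl+/- mice, and from -0.312 through -0.0020 to 0.0788 in wild type mice. Its fold was 0.864 with a 95% interval of 0.663 to 1.13 (limma adjusted p = 0.846, exact permutation p = 0.293). The lowest value of Idi1 was that of wild type 4, while the other 7 wild type mice lay within -0.0221 and 0.0788.

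Fdps, farnesyl diphosphate synthase, makes the last intermediate shared with protein prenylation and had the widest range of the 8. It ran from -0.163 through a median of 0.0412 to 0.376 in Lpl+/- mice, and from -0.270 through -0.0502 to 0.201 in wild type mice. The mouse with the highest value, Lpl+/- 4, stood 4.42-fold above the lowest, wild type 9. The fold between the genotypes was 1.21 with a 95% interval of 0.825 to 1.76 (limma adjusted p = 0.855, exact permutation p = 0.349).

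Fdft1, Sqle, Lss and Cyp51 act after that branch point and are dedicated to sterols. Fdft1, squalene synthase, ran from -0.144 through -0.0235 to 0.124 in Lpl+/- mice, and from -0.175 through -0.0220 to 0.106 in wild type mice. The ranges were nearly the same, with a fold of 1.02 and a 95% interval of 0.804 to 1.31 (limma adjusted p = 0.972, exact permutation p = 0.841). Its difference had the other sign in 9 alternative settings, among them both settings that turned the sign of wild type 8.

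Cyp51, the sterol demethylase that acts on lanosterol, ran from -0.182 through -0.0590 to 0.269 in Lpl+/- mice, and from -0.153 through -0.0484 to 0.0765 in wild type mice. Of the Lpl+/- mice, 7 lay at or below -0.0239 and 1, Lpl+/- 4, stood apart at the top. The fold was 0.996 with a 95% interval of 0.770 to 1.29 (limma adjusted p = 0.997, exact permutation p = 0.980), and the sign of the difference was the other in 8 alternative settings. Lss, lanosterol synthase, which closes the rings, ran from -0.177 through -0.0814 to -0.0036 in Lpl+/- mice, all below the pool, and from -0.166 through -0.0204 to 0.150 in wild type mice. Its fold was 0.871 with a 95% interval of 0.702 to 1.08 (limma adjusted p = 0.836, exact permutation p = 0.224).

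Sqle, squalene epoxidase, is a flux-limiting enzyme of the sterol branch. As the mean of its 2 probes it ran from -0.130 through -0.0595 to 0.0437 in Lpl+/- mice, and from -0.142 through -0.0251 to 0.0303 in wild type mice, the narrowest range of the 8. The fold was 0.939 with a 95% interval of 0.823 to 1.07 (limma adjusted p = 0.859, exact permutation p = 0.347). The probes disagreed. Over 16 mice they correlated at r = -0.510, while the probes of Hmgcs1 correlated at r = 0.987. The first Sqle probe had an SD of 0.127 over the mice and a difference of -0.0697 between Lpl+/- and wild type, and the second had an SD of 0.0349 and a difference of 0.0152. The first probe correlated with Idi1 at r = 0.794 and with the mean of the other 7 genes at r = 0.696, and the second at r = -0.437 and r = -0.460. These correlations between probes are descriptions. What sets the probes apart was not tested, so the values of Sqle are uncertain.

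Insig1, the brake, ran from -0.194 through -0.101 to 0.0451 in Lpl+/- mice, and from -0.283 through 0.0020 to 0.219 in wild type mice. Of the Lpl+/- mice 7 lay below 0, and the wild type mice were spread to both sides. Its means were -0.101 ± 0.0847 in Lpl+/- and -0.0200 ± 0.156 in wild type livers (SD, n = 8 each), a fold of 0.831 with a 95% interval of 0.624 to 1.11 (limma adjusted p = 0.836, exact permutation p = 0.221). The extreme wild type mice were wild type 5 at the top and wild type 8 at the bottom, the arrays whose direction is not settled. The difference was -0.0806 as deposited, -0.0259 with wild type 5 turned, -0.151 with wild type 8 turned and -0.0968 with both turned. With either or both signs turned, 0 of the 8 genes were called.

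The wild type mice were also set against the pool. Whether they were in the pool is unknown here, and if so their mean would lie near 0 by design. The counts that follow are therefore a description and no measure of the error of the method. None of the 36824 features (0%) was called in limma for a wild type mean away from 0, with 869 (2.36%) at an unadjusted p under 0.05, and 0 of the 8 genes were called. The 8 genes varied widely between mice all the same. By the SD within genotypes, Fdps stood at percentile 97.4 of all features, Hmgcs1 at 96.1, Insig1 at 95.1, Idi1 at 94.1, Cyp51 at 93.7, Fdft1 at 92.7, Lss at 90.0 and Sqle, with its disagreeing probes, at 68.9. All features include probes without a symbol and were not filtered by signal, so the percentiles do not compare the 8 with well-measured genes alone. Highest over lowest mouse was 3.18-fold for Insig1, 2.83-fold for Cyp51 and 1.99-fold for Fdft1.

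Within each genotype some mice were high and others low for most of the 8 genes. The mean over the 8 was highest in Lpl+/- 4 at 0.115, followed among Lpl+/- mice by Lpl+/- 1 at -0.00938, and was lowest in Lpl+/- 7 at -0.136 and Lpl+/- 2 at -0.127. Among wild type mice it was highest in wild type 6 at 0.0812 and wild type 5 at 0.0705, and lowest in wild type 4 at -0.121, wild type 8 at -0.119 and wild type 7 at -0.117. The group means of this score were -0.0445 ± 0.0790 in Lpl+/- and -0.0320 ± 0.0882 in wild type livers (SD, n = 8 each). In Lpl+/- 2, Lpl+/- 7 and wild type 7, 0 of the 8 genes lay above the pool, while 7 of 8 did in wild type 5. The map of the 8 genes by mouse shows these rows and columns together.

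**Figure D2:**
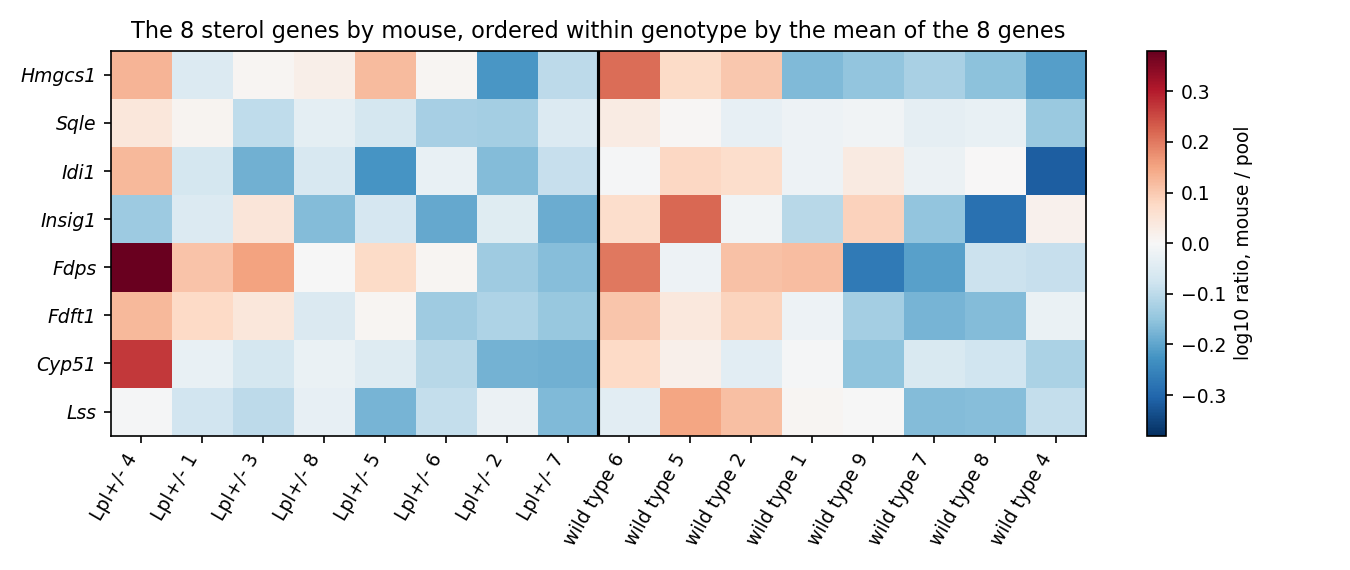
Log10 ratio over the pool (colour) of each of the 8 genes (rows) in each mouse (columns), with the 8 Lpl+/- mice left of the line and the 8 wild type mice right of it, each ordered by the mean of the 8 genes. Lpl+/- 4 and wild type 6 have the highest means of their genotypes (0.115 and 0.0812), and Insig1 departs from the other rows in several mice.

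The 8 genes give 28 pairs, and 27 of them correlated above 0 over the 16 mice. With values centred on genotype means, the median Pearson r of the pairs was 0.490, beside a median of -0.0217 for 1 of the 8 genes with any feature. Of the 28 pairs, 13 (46.4%) reached r of 0.5, beside 5.48% of all features, unfiltered by signal, with 1 of the 8. Within genotypes the median r was 0.478 in Lpl+/- mice, where 22 of 28 pairs were above 0, and 0.495 in wild type mice, where 28 of 28 were. Leaving out Lpl+/- 4 lowered the centred median to 0.362, and using only the second Sqle probe lowered it to 0.341. It was 0.460 with wild type 5 turned and 0.540 with wild type 8 turned. The pairs share genes and arrays, so these counts carry no p.

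**Figure D3:**
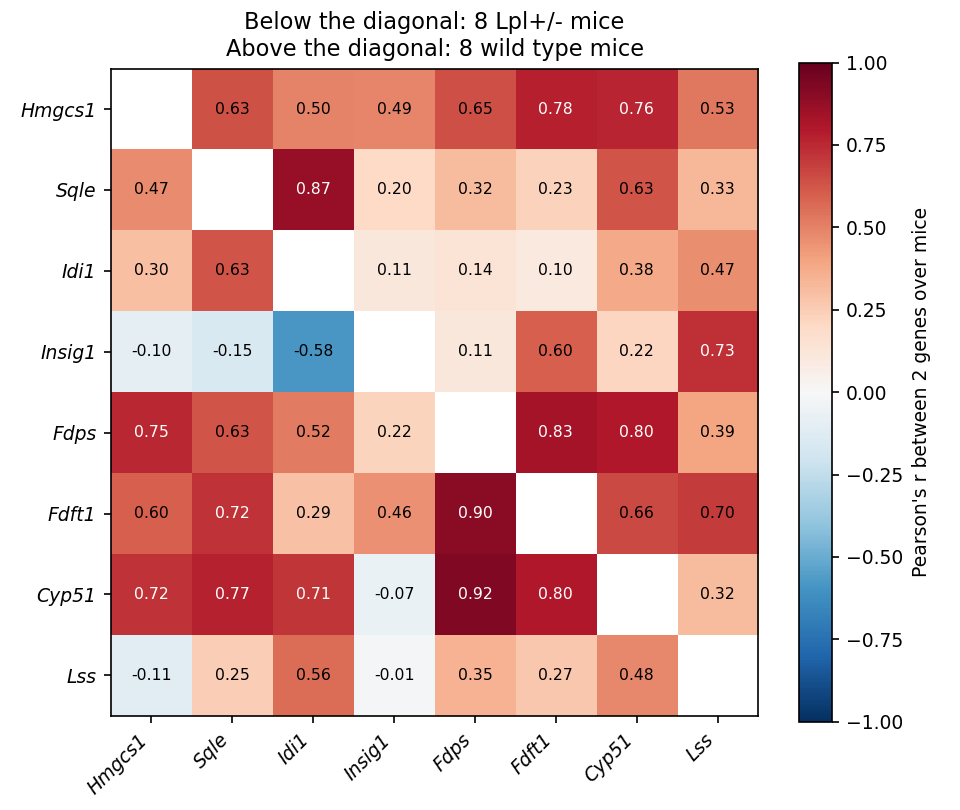
Pearson's r (colour and printed number) between each pair of the 8 genes, over 8 Lpl+/- mice below the diagonal and 8 wild type mice above it. Fdps, Fdft1, Cyp51 and Hmgcs1 form a block of high r in both genotypes, and Insig1 has its highest r with Lss in wild type mice (0.733) and is near 0 with Lss in Lpl+/- mice (-0.0128).

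Each pair was tested by regressing every feature on genotype and 1 of the 8 genes with limma, adjusted over all other features, and a pair was called only when it passed in both fits, with each gene as the covariate once. This called 2 of 28 pairs, Fdps with Fdft1 and Fdps with Cyp51. The background of that call is 64 features (0.174%) for Fdps, 36 (0.0978%) for Fdft1, 25 (0.0679%) for Cyp51 and 0 features (0%) for each of the other 5 genes. At an unadjusted limma p under 0.05 the share of features was 10.5% for Hmgcs1, 12.4% for Idi1, 19.1% for Fdps, 19.1% for Fdft1, 4.81% for Sqle, 6.5% for Lss, 13.7% for Cyp51 and 11.7% for Insig1. With permutation p under 0.05 for Pearson's r there were 11 of 28 pairs, and the share of features by that test was not computed.

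Fdps and Fdft1, neighbours at the branch point of the pathway, had the highest r of the 28. It was 0.851 over 16 mice (permutation p = 3e-05), with Spearman's rho of 0.829 (permutation p = 8e-05), and 0.839 without the mice farthest from the median of Fdps, Lpl+/- 4 and wild type 9. Within genotypes r was 0.903 in Lpl+/- mice (n = 8, exact permutation p = 0.000843) and 0.834 in wild type mice (n = 8, exact permutation p = 0.0136). The limma adjusted p was 0.0310 with Fdps and 0.0350 with Fdft1 as the covariate. Mice with high Fdps had high Fdft1 in both genotypes. The call by the threshold held in 12 of 26 alternative settings and in 6 of 16 that left out 1 mouse, and the highest adjusted p was 0.978, with the replicate number as a block.

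Fdps and Cyp51 correlated at r = 0.818 (permutation p = 0.00013) and rho = 0.729 (permutation p = 0.00178), with r = 0.922 in Lpl+/- mice (n = 8, exact permutation p = 0.00280) and r = 0.805 in wild type mice (n = 8, exact permutation p = 0.0170). Without Lpl+/- 4 and wild type 9 it was 0.673. Lpl+/- 4 was the highest mouse for both genes, and without that mouse alone the limma adjusted p was 0.192. The limma adjusted p over all mice was 0.0425 with Fdps and 0.0402 with Cyp51 as the covariate, and the call held in 9 of 26 settings and in 4 of 16 that left out 1 mouse.

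**Figure D4:**
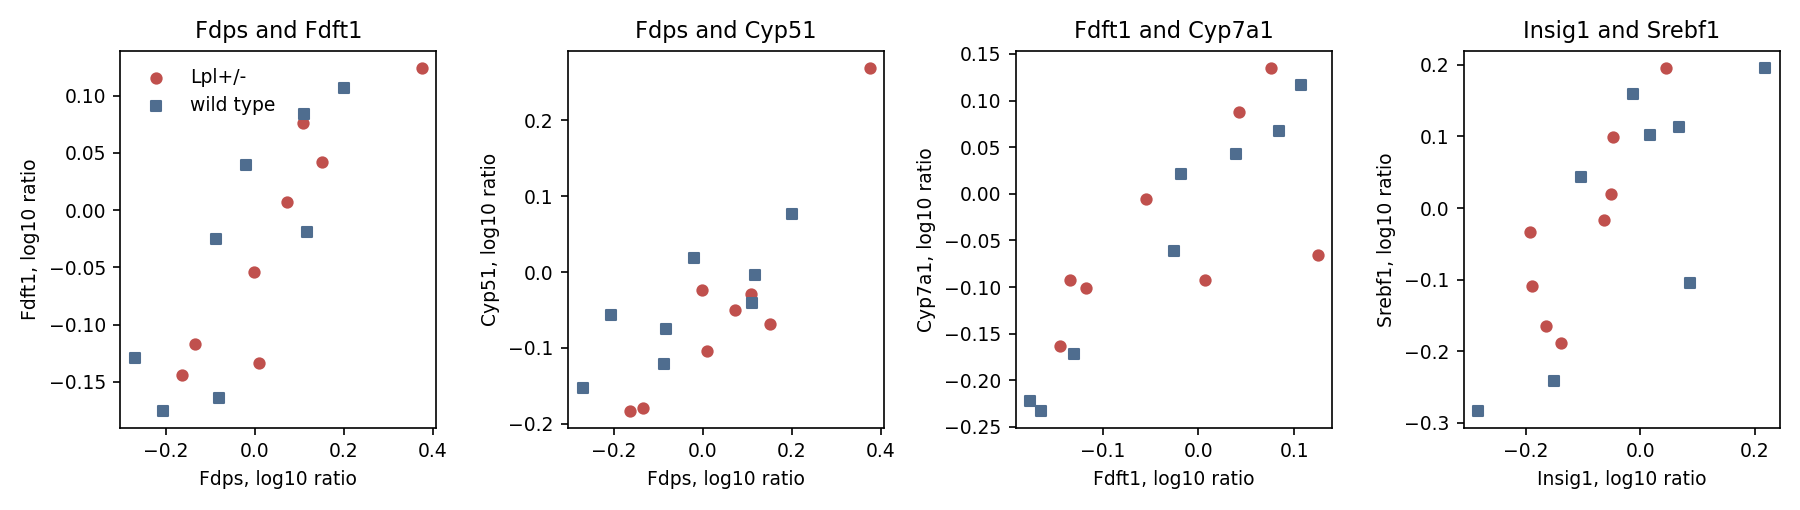
Log10 ratios over the pool of 4 pairs of genes, 1 point per mouse, with circles for Lpl+/- and squares for wild type mice. Over 16 mice r was 0.851 for Fdps and Fdft1, 0.818 for Fdps and Cyp51, 0.832 for Fdft1 and Cyp7a1 and 0.754 for Insig1 and Srebf1, and the Lpl+/- mouse at the upper right of the first and second panels is Lpl+/- 4.

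The remaining pairs did not pass the threshold in both fits. Sqle and Idi1 correlated at r = 0.755 (permutation p = 0.00077) and rho = 0.771 (permutation p = 0.00081), and at 0.608 without Lpl+/- 2 and wild type 4. Wild type 4 was the lowest mouse for both genes. The limma adjusted p was 0.350 with Idi1 as the covariate and close to 1 with Sqle. Fdft1 and Cyp51 correlated at r = 0.707 (permutation p = 0.00049), with limma adjusted p of 0.0977 and 0.114. Hmgcs1 correlated at r = 0.698 with Fdft1, 0.691 with Fdps and 0.653 with Cyp51, with limma adjusted p between 0.101 and 0.344. The mean of the other 7 genes was followed most closely by Fdft1 (r = 0.835) and Cyp51 (r = 0.781), and least by Idi1 (r = 0.428) and Insig1 (r = 0.271).

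Insig1 was the least tied to the enzymes. Its r was -0.00785 with Idi1, 0.0502 with Fdps, 0.0594 with Cyp51, 0.128 with Sqle, 0.249 with Hmgcs1, 0.488 with Fdft1 and 0.606 with Lss. The last (permutation p = 0.0122, rho = 0.476, permutation p = 0.0632) was 0.307 without wild type 5 and wild type 8, so it rests on those mice, and the limma adjusted p was 0.360 and 0.704. A test of whether the slope of a pair differed between genotypes gave 0 of 28 pairs after adjustment over all features. At an unadjusted p under 0.05 it gave 1, Fdps with Cyp51 (limma unadjusted p = 0.0280, adjusted p = 0.853). The share of features at that unadjusted threshold is not given here, so the count of 1 is a description only.

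The 8 genes were also set against 8 genes outside the set (Srebf2, Srebf1, Fasn, Abca1, Cyp7a1, Lpl, Arntl and Dbp), 64 relations in all. Permutation p for Pearson's r was under 0.05 in 15 of them, a test whose share over all features was not computed. At an unadjusted limma p under 0.05 the share of features ran from 4.81% with Sqle to 19.1% with Fdps or Fdft1. Of the 64 relations, 1 passed the limma threshold. That one was Fdft1 with Cyp7a1, the rate-limiting enzyme of bile acid synthesis. Its r was 0.832 (permutation p = 0.00011), with rho of 0.815 (permutation p = 0.00025) and limma adjusted p of 0.0435 with Fdft1 as the covariate. It was 0.915 without Lpl+/- 4 and wild type 7. Within genotypes r was 0.624 in Lpl+/- mice (n = 8, exact permutation p = 0.107) and 0.983 in wild type mice (n = 8, exact permutation p = 4.96e-05). Lpl+/- 4 had the highest Fdft1 and a Cyp7a1 value below the pool. The call held in 7 of 26 settings and in 3 of 16 that left out 1 mouse, and with wild type 5 or wild type 8 turned the adjusted p was 0.0537 or 0.0509. Cyp7a1 itself was not called between genotypes, with a fold of 1.04 and a 95% interval of 0.790 to 1.37 (limma adjusted p = 0.959). With Lpl none of the 8 genes passed, and the lowest limma adjusted p was 0.418, for Idi1. Insig1 had r with Lpl of -0.893 in Lpl+/- mice (n = 8, exact permutation p = 0.00449). In wild type mice it was 0.0980 (n = 8, exact permutation p = 0.819). The test of whether this slope differed between genotypes did not pass (limma adjusted p = 0.748, unadjusted p = 0.000102).

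Insig1 was also set against Srebf1, which encodes SREBP1a and SREBP1c. Its r with Srebf1 over 16 mice was 0.754 (permutation p = 0.00078) and rho 0.768 (permutation p = 0.00076), 0.626 without wild type 5 and wild type 8, and 0.742 with wild type 5 turned. Within genotypes it was 0.839 in Lpl+/- mice (n = 8, exact permutation p = 0.00995) and 0.756 in wild type mice (n = 8, exact permutation p = 0.0290). The limma adjusted p was 0.202, so the relation did not pass. Fdft1 had r with Srebf1 of -0.0128 in Lpl+/- mice (n = 8, exact permutation p = 0.976) and 0.923 in wild type mice (n = 8, exact permutation p = 0.00186). Lss had r of -0.163 in Lpl+/- mice (n = 8, exact permutation p = 0.697) and 0.798 in wild type mice (n = 8, exact permutation p = 0.0218). In wild type mice both values were above that of Insig1. With Fasn, fatty acid synthase, Insig1 had r = 0.660 (permutation p = 0.00538), or 0.402 without wild type 5 and wild type 8. Within genotypes r with Fasn was 0.886 in Lpl+/- mice (n = 8, exact permutation p = 0.00437). In wild type mice it was 0.605 (n = 8, exact permutation p = 0.112), and the relation did not pass (limma adjusted p = 0.297). Other genes had a higher r with Fasn in wild type mice: Fdft1 0.843, Cyp51 0.767, Fdps 0.713, Lss 0.695 and Hmgcs1 0.669. Those of Sqle (0.277) and Idi1 (0.163) were lower. In Lpl+/- mice all of these lay between -0.661 for Idi1 and 0.101 for Fdft1. Over all mice Fdft1 had r with Fasn of 0.565 and did not pass (limma adjusted p = 0.165). For Cyp51 with Fasn, the slope test between genotypes did not pass (limma adjusted p = 0.839, unadjusted p = 0.00335). Srebf2 correlated with Hmgcs1 at r = 0.594 (permutation p = 0.0163), or 0.338 without Lpl+/- 2 and wild type 6, and with Lss at r = -0.275 (permutation p = 0.302). Neither Fdft1 nor Lss passed with Srebf1 over all mice (limma adjusted p = 0.188 and 0.730). The test of whether the slope on Srebf1 differed between genotypes gave limma unadjusted p = 0.0104 for Fdft1 (adjusted p = 0.490). For Lss it gave limma unadjusted p = 0.0667, with an adjusted p close to 1. Differences between genes in these correlations were not tested.

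Clock genes divided the mice. Dbp, an output gene of the clock, lay between 0.0594 and 0.164 in 7 mice (3 Lpl+/- and 4 wild type), with Arntl between -0.641 and -0.282. It lay between -0.408 and -0.105 in the other 9 (5 Lpl+/- and 4 wild type), with Arntl between -0.0649 and 0.495. No correlation over all mice is given with these genes, since the mice fall into clusters. Within each cluster the 8 genes covaried, with a median pair r of 0.560 in the 7 mice and 0.490 in the 9. Fdps with Fdft1 had r = 0.746 in the 7 and 0.903 in the 9, Fdps with Cyp51 0.650 and 0.892, Fdft1 with Cyp7a1 0.910 and 0.786, and Insig1 with Srebf1 0.761 and 0.652. Sqle with Idi1 had 0.854 in the 7 and 0.583 in the 9, and Insig1 with Lss 0.472 and 0.511. Insig1 with Fasn had 0.838 in the 7 and only 0.317 in the 9. Differences between the clusters were not tested. The mean of the 8 genes ran from -0.127 to 0.0705 in the 7 mice and from -0.136 to 0.115 in the 9. Wild type 5 (Dbp 0.125) was among the 7 and wild type 8 (Dbp -0.254) among the 9, and their direction is unsettled. Either array would fall in the other cluster if its sign were turned.

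Other enzymes of the pathway were not called between genotypes either. Of 10 analysed here, 6 had a higher and 4 a lower mean in Lpl+/- livers, 0 were called in limma, and the median difference was 0.00407. The smallest p was that of Hsd17b7, a sterol ketoreductase, which ran from -0.177 through -0.0897 to -0.0053 in Lpl+/- mice and from -0.110 through -0.0416 to 0.131 in wild type mice, a fold of 0.864 (limma adjusted p = 0.836). Nsdhl, a sterol dehydrogenase, had a fold of 1.05, Msmo1, the sterol methyl oxidase, 1.06, and Mvd, mevalonate diphosphate decarboxylase, 0.936, with limma adjusted p between 0.881 and 0.926.

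Between mice, most of these enzymes moved with the 8 genes. The mean of the 10 correlated with the mean of the 8 at r = 0.931, on values not centred on genotype means, given as a description. With values centred on genotype means, single enzymes correlated with the mean of the 8 at 0.890 for Mvd, 0.880 for Msmo1 and 0.843 for Nsdhl. The lowest were 0.0917 for Hsd17b7 and -0.399 for Ggps1, the geranylgeranyl diphosphate synthase of the non-sterol branch, which was named after its values were seen. None of the 10 was called in limma for covariation with any of the 8.

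Of 12 regulators and other targets of SREBPs analysed here, 7 had a higher and 5 a lower mean in Lpl+/- livers, and 0 were called. Mbtps1, a protease that cleaves SREBPs, had a fold of 1.05, Scap 1.04, Npc1, a lysosomal cholesterol exporter, 0.931 and Acly, ATP citrate lyase, 0.885 (limma adjusted p between 0.854 and 0.905). Their mean correlated with the mean of the 8 genes at r = 0.449, less than the 10 enzymes did, a difference that was not tested.

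**Figure D5:**
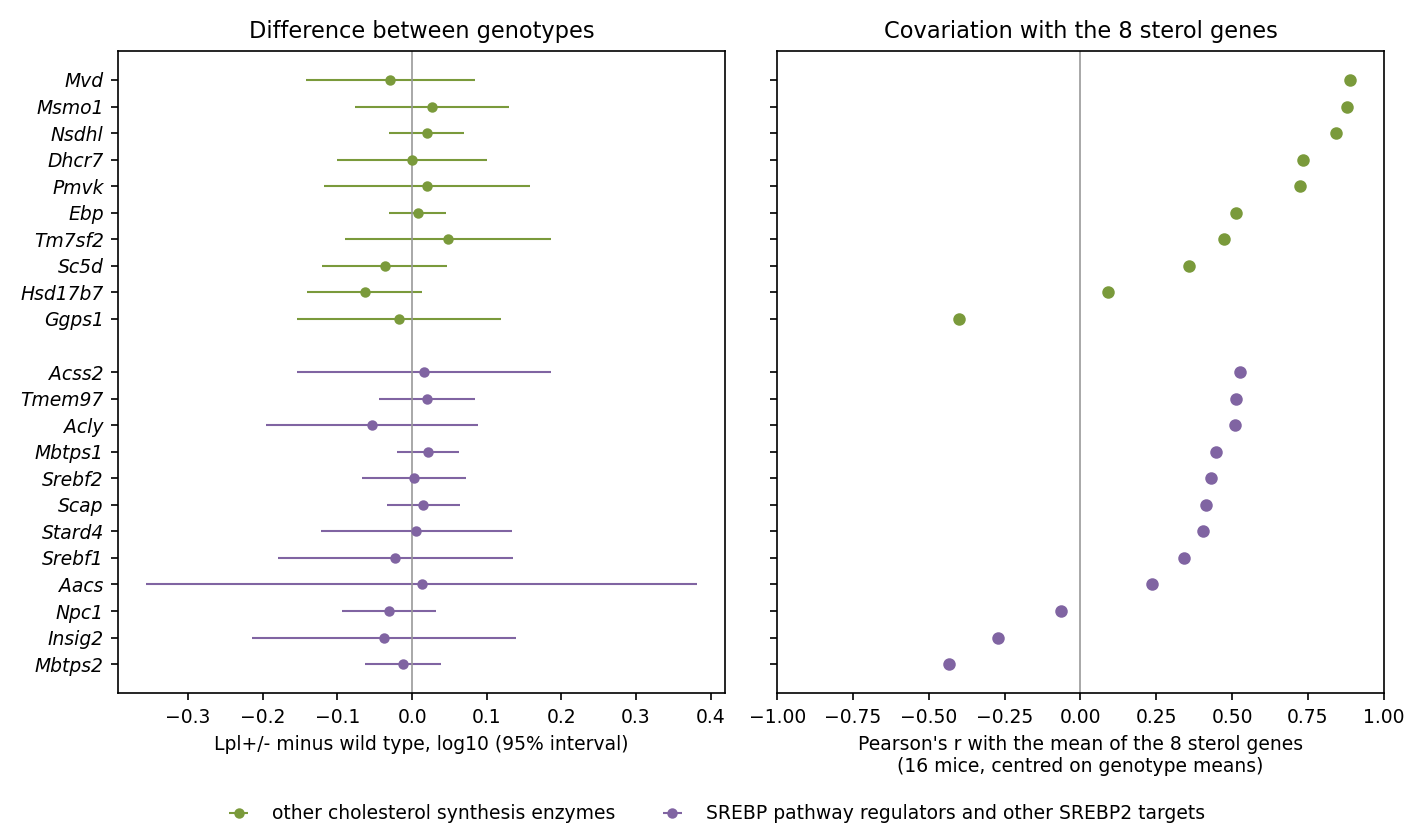
Left, difference in log10 ratio between Lpl+/- and wild type mice (horizontal axis, with its 95% interval) for 10 other cholesterol synthesis enzymes and 12 SREBP regulators and targets. Right, Pearson's r of the same genes with the mean of the 8 sterol genes over 16 mice, centred on genotype means. Every interval on the left includes 0, while on the right Mvd (0.890), Msmo1 (0.880) and Nsdhl (0.843) lie farthest above 0 and Mbtps2 (-0.433) and Ggps1 (-0.399) farthest below it.

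Genes of neighbouring pathways gave 0 calls between genotypes in each list. Of 12 genes of cholesterol efflux, esterification and LXR response, 5 were higher and 7 lower in Lpl+/- livers. The smallest p was that of Apoa1, the main protein of HDL, with a fold of 0.822 and a 95% interval of 0.715 to 0.946 (limma adjusted p = 0.836). Of 6 bile acid genes 5 were higher and 1 lower, led by Nr0b2, the repressor SHP, with a fold of 1.16 (limma adjusted p = 0.836). Of 12 fatty acid synthesis genes 3 were higher and 9 lower, among them Pnpla3 at 0.831, Elovl6 at 0.796 and Scd1 at 0.741 (limma adjusted p = 0.836 each). Their lists correlated with the mean of the 8 genes at r = 0.218, 0.379 and 0.344.

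The genes most like the mean of the 8 were sought among all other genes with a symbol, by Pearson's r over 16 mice centred on genotype means, where the median was -0.00505. The highest were Bhmt2 at 0.893, Mvd at 0.890, Mmab at 0.886, Msmo1 at 0.880, Cetn2 at 0.870, Ralgps1 at 0.853, Nsdhl at 0.843, Niban2 at 0.836, Trim12a at 0.829 and Papss1 at 0.821. Of these 10, 3 are cholesterol synthesis enzymes. Of the other 7, Bhmt2 and Mmab were called in limma with both Fdps and Fdft1, Niban2 with Fdft1 and Papss1 with Cyp51. The lowest were Gp1ba at -0.894, Arg2 at -0.854, Slc7a9 at -0.848, Tmem117 at -0.832 and Pcdha7 at -0.826. Of the 10 highest, Lpl+/- 4 was the highest mouse for Bhmt2, Mmab, Msmo1, Cetn2, Nsdhl, Trim12a and Papss1. Wild type 5 was the highest for Mvd, and wild type 6 for Ralgps1 and Niban2. Of the 8 sterol genes, Lpl+/- 4 was the highest mouse for Sqle, Idi1, Fdps, Fdft1 and Cyp51. The 10 genes were picked for likeness to a mean that was itself highest in Lpl+/- 4. The likeness was not computed again without this mouse, so how far it rests on Lpl+/- 4 was not tested.

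Markers of cell types were set beside these values. In Lpl+/- livers 9 of 10 Kupffer cell and macrophage markers were lower, with a summary running from -0.160 to 0.107 in Lpl+/- and from -0.149 to 0.142 in wild type mice, and 0 were called. Of 7 stellate cell markers 6 were lower, of 8 hepatocyte markers 6 were lower, and of 4 red cell markers 4 were higher, with 0 called in limma. Of 6 markers each, 3 endothelial, 4 adipocyte, 2 lymphocyte and 2 neutrophil markers were higher, again with 0 called. Over all features 51.0% were higher. The mean level of a marker list correlated with the mean of the 8 genes between r = -0.358 for adipocyte and r = 0.295 for endothelial markers. As the values are ratios, no marker can be said to be absent. The part of cell types in the differences between mice was not tested.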

How the data were processed

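Liver RNA of 8 Lpl+/- and 8 wild type mice was hybridised against a pool of 9 wild type livers on 2-colour arrays. Per the labels' protocols, RNeasy columns and DNase gave the RNA, an automated form of an aminoallyl kit gave the label, and channel 1 holds Cy3 and channel 2 Cy5. The deposited values are log ratios, taken as log10. No source used here names the base, but the deposited values end at 2 and -2, which in log10 is a fold of 100. Folds rest on that base and p-values do not. In log2 the folds of the 8 genes would lie between 0.946 and 1.06. Dyes were swapped, per the design text. How swapped hybridizations were joined, the background correction and the normalization are not stated in the sources used here.

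Array medians lay between -0.0045 and 0.0072, and an array had 0 to 88 values at that limit. Of 39556 probes, 23283 had 1 gene symbol, 0 several and 16273 none. Probes of 1 symbol were averaged, which left 36824 features. Symbols of 5952 were updated through a RefSeq gene table of GRCm38.p6, which also gave the promoters.

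Groups were compared with limma 3.58.1 (lmFit and eBayes, two-sided) in R 4.3.3, with Benjamini-Hochberg adjustment over all features and a threshold of 0.05. Single genes also had an exact two-sided permutation test (12870 ways to assign the mice). Covariation was tested by limma regression on genotype and 1 gene at a time, beside Pearson's r and Spearman's rho with 100000 permutations, or all orders within a genotype (called exact). The fits were tested on simulated data. The mice are separate animals, and their number sets the precision.

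The genes and lists were chosen with earlier results of these data known. The naming rule took the 8 genes, Lpl, up to 6 genes of each list with the smallest p, the partner genes, and the 10 genes most like and 5 least like the mean of the 8. A gene named for its place in that likeness within a list was named after its values were seen. Partner genes and list members without a feature were not analysed here. Replicate numbers shared by the genotypes were checked over 7 pairs: deviations of same-numbered mice correlated between r = -0.245 and 0.381, so the numbers were not taken to pair the mice. Alternatives covered centring, quantile normalization, the variance model, array weights, single probes, values at the limit, turned signs, the replicate number as a block and each mouse left out. Turning both signs together, leaving out the 3 arrays that held most limit values, single Sqle probes and the replicate block in the covariation fits were added after seeing the data.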

Additional observations from a re-analysis of the deposited data

Results flagged for a closer look

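Of 120 groups of 8 mice, for 60 genes named or listed, 10 held a mouse far from the other 7, by Dixon's test. Chance flags about 1 in 20 groups, or 6 of 120. Of the 8 sterol genes, Cyp51 was at 0.269 in Lpl+/- 4, with the next Lpl+/- mouse at -0.0239. Idi1 was at -0.312 in wild type 4, with the next at -0.0221, and Sqle at -0.142 in the same mouse, with the next at -0.0333. Lpl+/- 4 also stood apart for Nsdhl at 0.120, Mmab at 0.213, Papss1 at 0.260 and Arg2 at -0.0872, genes that were picked for their likeness to the mean of the 8 or belong to the same pathway. The others were Pnpla3 in Lpl+/- 6 at 0.0347, Fads2 in wild type 1 at 0.152 and Mbtps1 in wild type 9 at -0.0943. No explanation was tested for these mice.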

How the results depend on the processing

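None of the 8 sterol genes was called between genotypes in limma in any of 29 alternatives, nor was any of the 22 other sterol pathway genes, and 0 of the 8 were called between wild type and the pool in 11 alternatives. The lowest adjusted p of the 8 was 0.679, for Fdps. Over all features, 6 calls became 0 with quantile normalization, 0 with robust, trended variance, 3 with wild type 8 turned, 3 with wild type 5 and wild type 8 turned and 1 without the 3 arrays that held most limit values, and 1 to 9 with 1 mouse left out. The 2 called pairs became 1 without a genotype term, 1 with robust, trended variance, 1 without the 3 arrays that held most limit values, 0 with quantile normalization and 0 to 2 with 1 mouse left out. With the replicate number as a block, on the 14 arrays whose numbers are shared, 1 feature and 0 pairs were called, and the same arrays without the block also gave 1 feature and 0 pairs. Of those numbers, 1 of 7 correlated best with its own number. Of the settings that left out 1 mouse, Fdps with Fdft1 remained called without Lpl+/- 4, Lpl+/- 6, wild type 1, wild type 2, wild type 4 or wild type 8, and was lost without any other (highest adjusted p = 0.161, without wild type 6). Fdps with Cyp51 remained called without Lpl+/- 3, wild type 2, wild type 4 or wild type 7 (highest elsewhere 0.192, without Lpl+/- 4). Fdft1 with Cyp7a1 remained called without Lpl+/- 4, Lpl+/- 6 or wild type 2 (highest elsewhere 0.176, without wild type 6). The slopes stayed above 0 in all 26 alternatives that touch these pairs. The causes were not tested, beside fewer arrays where some were left out. Arrays give no depth, and signal over background was not analysed here.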
